A study of Mus musculus with 12 samples.

Results

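The BCL2 family sets whether a cell keeps its mitochondria intact. Its survival proteins (BCL2, BCL2L1 or BCL-xL, MCL1 and the A1 proteins) hold the pore formers BAK1 and BAX in check, and the BH3-only proteins (BIM from Bcl2l11, BID, BMF, BIK and others) set the pore formers free by binding the survival proteins or by activating BAK1 and BAX directly. Blood-forming tissue leans on this family: MCL1 is needed by stem cells and neutrophils, BCL2 by lymphocytes, BCL-xL by late red cell precursors and platelets, and A1 is made by myeloid and lymphoid cells. Several BH3-only genes are p53 targets, which ties the family to radiation damage.

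The family is followed here by 10 named genes among the 21853 genes of the deposited table, in whole bone marrow of mice. They are the survival genes Bcl2, Bcl2l1, Mcl1, Bcl2a1b and Bcl2a1d, the pore former Bak1, and the BH3-only genes Bcl2l11, Bid, Bmf and Bik. The 9 other than Bik passed the filter on low values (an FPKM of 1 or more, reached by 3 or more of the 12 libraries) and were tested. Bcl2a1d passed with 8 libraries at or above that level, the control libraries among them.

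Marrow of B6 mice was taken at the same time in 4 groups of 3 libraries, 14 days after irradiation in those exposed. The control mice were not irradiated, and no gavage is stated for them. The TBI mice received 5 Gy of total body gamma irradiation at 0.66 Gy/min and then the vehicle, 100 µL of olive oil given by gavage. The TBI+DEIX mice received the same irradiation and then 25 mg of DEIX per kg body weight by mouth once a day for 14 days, and the DEIX mice received that dose without irradiation. The series title names deinoxanthin, a carotenoid, as the supplement. Age and sex are not stated, and no group is stated to be unirradiated mice given vehicle alone, so in the comparisons with control, DEIX cannot be told apart from its dosing, nor irradiation from the vehicle and gavage. Whether a library is 1 mouse or a pool is not stated either, so p-values measure the spread between these libraries.

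All expression levels are FPKM, which the authors scaled by transcript length and by the fragments of the library. Changes are log2 differences of log2(FPKM + 1) from limma over all 12 libraries, with p-values adjusted by Benjamini-Hochberg over the 10994 genes tested, and a gene is called at an adjusted p under 0.05. Total depth per library is unknown. From the steps of low values, 1 read was worth between 0.892 and 1.89 times its worth in control replicate 1, in the 8 libraries where the steps were clear. TBI+DEIX replicate 1 stood apart from its group, and the within-group SD of log2 values was 0.418 in TBI+DEIX against 0.140 in control. The B lineage, erythroid, neutrophil, monocyte, T and NK cell, plasma cell, promyelocyte, megakaryocyte, granulocyte and stem cell marker lists were each detected in every group, as whole marrow should hold them. The 15 B lineage markers summed to between 643 and 782 FPKM in control and to between 10.6 and 468 in the other groups. In bulk marrow, fewer cells of a type and less RNA per cell cannot be told apart.

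**Figure D1:**
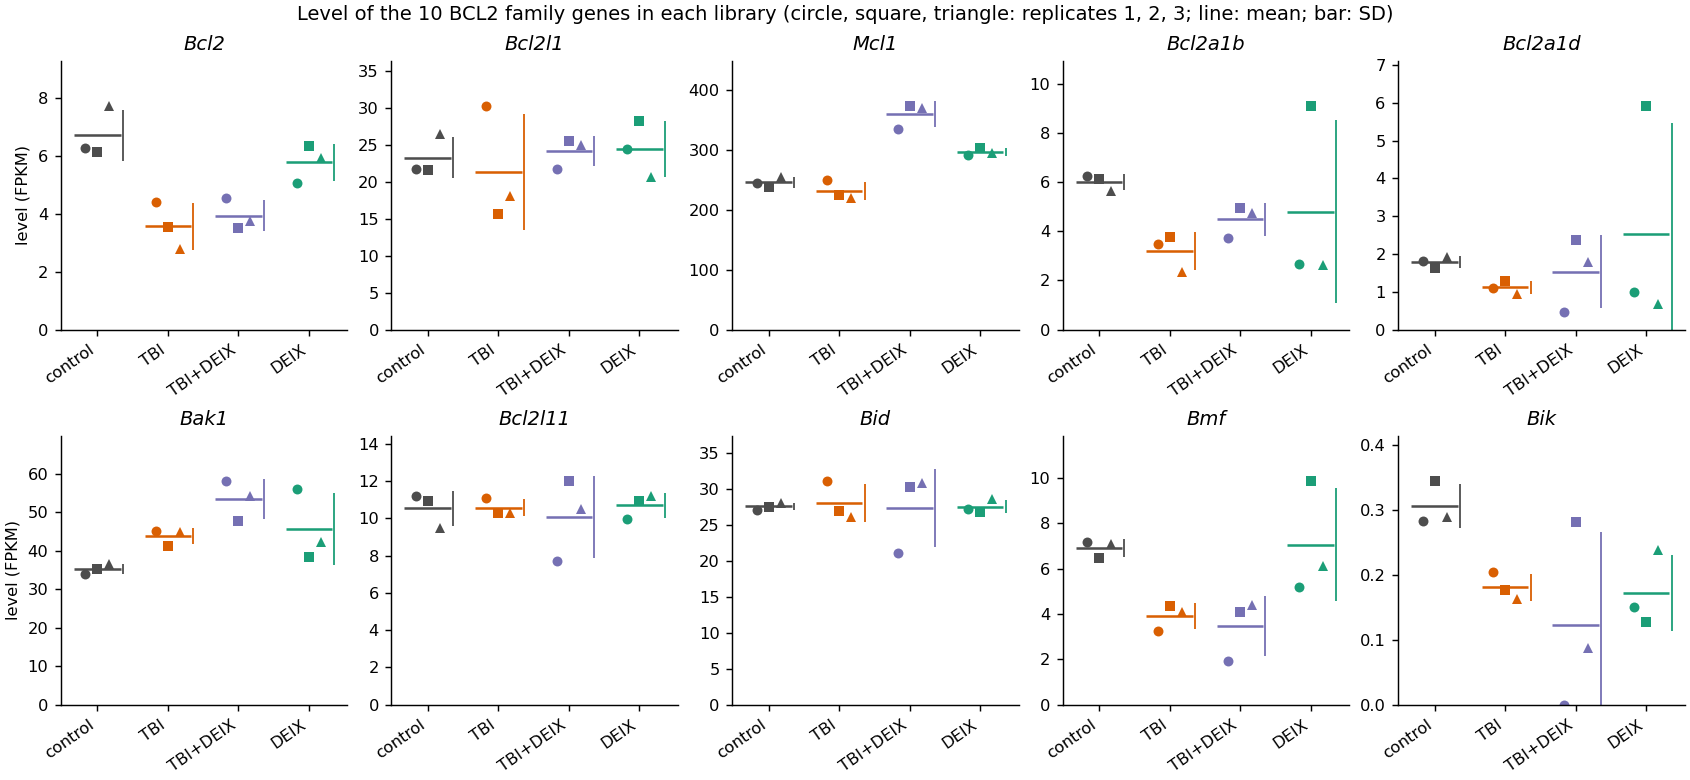
FPKM of the 10 BCL2 family genes in each of the 12 libraries, by group, with 1 panel per gene and its own axis from 0. Points are libraries, horizontal bars are group means and vertical bars are 1 SD over 3 libraries, cut at 0. The 6 irradiated libraries lie below the 6 unirradiated ones for Bcl2 and Bmf, and the 6 libraries with DEIX lie above the 6 without for Mcl1.

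Of the 9 tested members, 4 separated pooled groups of libraries along 3 lines in FPKM, and the other 5 overlapped in each of these poolings. Bcl2 ranged from 2.78 to 4.56 in the 6 irradiated libraries and from 5.08 to 7.74 in the 6 unirradiated ones. Bmf ranged from 1.95 to 4.39 in the irradiated libraries and from 5.20 to 9.87 in the others. For both, every irradiated library was below every unirradiated one, with or without DEIX, and 2.93% of all genes tested separated in this way in either direction. Mcl1 ranged from 291 to 373 in the 6 libraries with DEIX and from 220 to 255 in the 6 without, a separation that 4.83% of genes tested showed. Bak1 was lower in the 3 control libraries, 34.0 to 36.7, than in the other 9, 38.5 to 58.2, a separation in which control was the lower side for 9.76% of genes. These pooled ranges were taken after the values were seen and carry no test. On the TPM scale, where each library is divided by its own FPKM sum, the pooled ranges of these 4 genes overlapped. That sum moves with S100a8, S100a9 and Ngp, 3 neutrophil genes that read 0 in part of the libraries and very high in the rest. With TPM computed without those 3 genes the separations of Bmf, Mcl1 and Bak1 returned, and that of Bcl2 did not (5.73 to 10.7 against 9.17 to 14.1).

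The members' calls are read against the share of all genes called. For TBI against control 1 of the 9 tested members was called, and 3.99% of all genes were. For TBI+DEIX against TBI it was 1 of 9, against 8.1% of all genes. For DEIX against control no member was called by limma, with 2 at an unadjusted p under 0.05, against 7.24% of genes called. For TBI+DEIX against control 4 of 9 were called, against 30% of genes. The interaction, which asks whether the DEIX difference was unlike in irradiated and unirradiated mice, called no member, with 1 at an unadjusted p under 0.05, and 0.2% of genes. TBI mice were given vehicle and no gavage is stated for control, so the interaction cannot tell irradiation from the vehicle. Without overlap between the groups' libraries, the counts were 5, 2, 2 and 5 members in the first 4 comparisons, against 38.2%, 27.2%, 40.6% and 44.9% of genes. Without TBI+DEIX replicate 1, the members called were 2, 1, 1, 4 and 0 in the 5 comparisons, and the shares of all genes called were 12.2%, 25.8%, 21.8%, 38.5% and 3.01%. The comparisons share control, TBI or TBI+DEIX libraries, so they do not support each other.

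**Figure D2:**
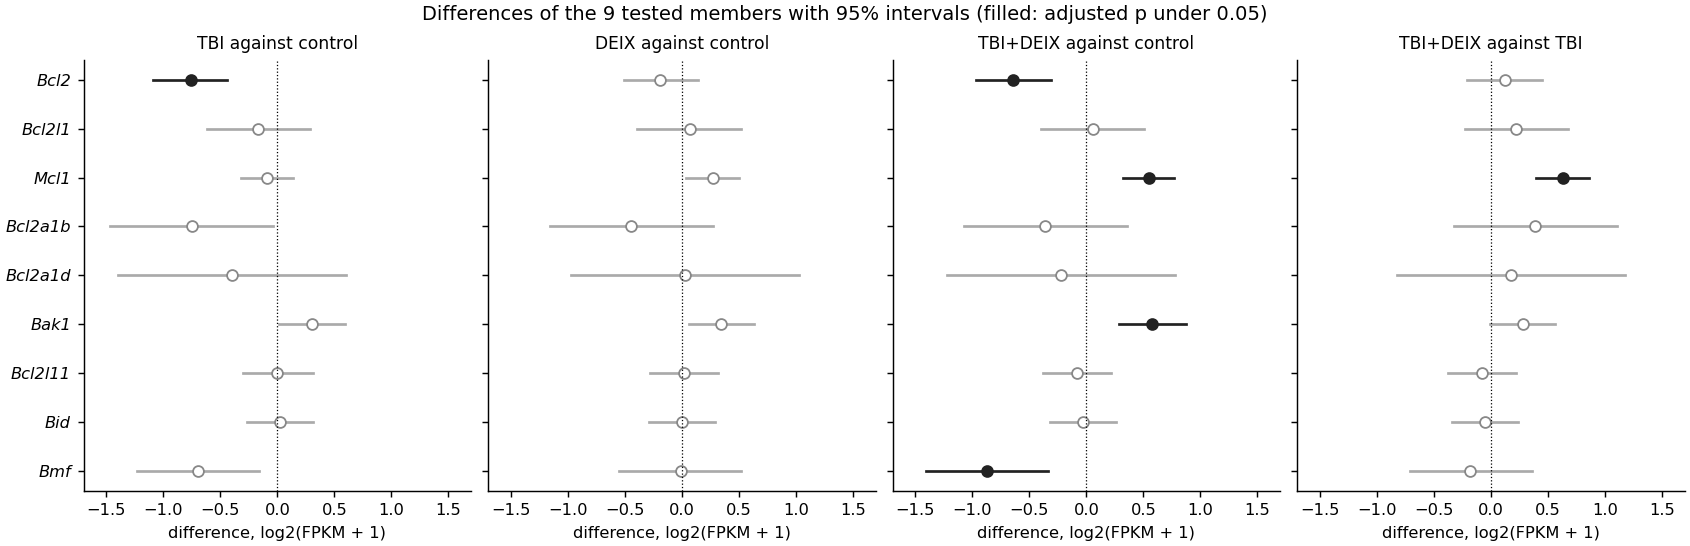
Log2 difference of the 9 tested members in 4 comparisons, with 95% confidence intervals from limma; filled points are called at an adjusted p under 0.05. Mcl1 lies above 0 for TBI+DEIX against TBI and Bcl2 below 0 for TBI against control, while the intervals of Bid and Bcl2l11 span 0 throughout.

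Mcl1, whose protein is short-lived and is replaced from new messenger RNA, made up most of the survival genes' summed FPKM, 86.7% in control and 91.3% in TBI+DEIX. Mcl1 (ENSMUSG00000038612.16, GRCm38 chr3:95658788-95663176, plus strand) read 245, 237 and 255 FPKM in control, 291, 303 and 294 in DEIX, 249, 224 and 220 in TBI, and 334, 373 and 370 in TBI+DEIX. The 3 TBI+DEIX libraries were higher than all 9 others, as they were for 5.36% of genes tested, and the DEIX libraries were higher than the control and TBI libraries. In TBI+DEIX its mean of 359 ± 21.4 FPKM (SD, n = 3) was 55.4% above the TBI mean of 231 ± 15.6, a log2 difference of 0.63 (SE 0.10, 95% confidence interval 0.40 to 0.86, limma adjusted p 0.0157). Against control the rise was 46.2%, a log2 difference of 0.55 (limma adjusted p 0.00335), which was lost on the TPM scale (0.42, limma adjusted p 0.141). DEIX alone stood 20.5% above control, a log2 difference of 0.27 with no overlap, and did not pass the test (limma adjusted p 0.14), while without TBI+DEIX replicate 1 the limma adjusted p was 0.0372. TBI differed from control by -0.09, interval -0.32 to 0.14. The interaction for Mcl1 was 0.37, with an unadjusted p of 0.0307 and an adjusted p of 0.592 in limma. A DEIX difference that depends on irradiation, or on the vehicle stated only for the TBI group, was therefore not shown.

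The call of Mcl1 for TBI+DEIX against TBI was lost without TBI replicate 3 (limma adjusted p 0.0849), without TBI+DEIX replicate 3 (0.0563), fitted on these groups alone (0.144) and on the TPM scale (0.175). In that fit of these groups alone no gene of the table was called by limma, and 2015 had an unadjusted p under 0.05. Its size stayed between 0.50 and 0.71 over the 21 alternatives. On the TPM scale the median of all genes shifted from 0.00 to -0.12 in this comparison and from 0.02 to -0.12 for DEIX against control. Relative to that median, Mcl1 was 0.63 higher in FPKM and 0.62 higher in TPM. The 13 markers of maturing neutrophils, cells that hold much Mcl1, summed to 21200, 53700 and 51500 FPKM in TBI+DEIX and to between 22300 and 37000 in the other groups. Of these 13 markers, 11 were higher and 2 lower in TBI+DEIX than in TBI, with a median log2 difference of 0.48 beside 0.00 for all genes. The lowest sum was that of TBI+DEIX replicate 1, where Mcl1 was 334 FPKM. None of the 13 was called by limma, with 4 at an unadjusted p under 0.05, and 1 was without overlap between these groups. Of all genes, 8.1% were called and 27.2% were without overlap in this comparison. Against control 11 of the 13 markers were higher in TBI+DEIX (median 0.93 beside 0.02 for all genes, 7 without overlap) and 12 in DEIX (median 0.60, 9 without overlap), with 6 and 1 called higher by limma. In these 2 comparisons 44.9% and 40.6% of all genes were without overlap, and 30% and 7.24% were called. The erythroid markers moved most for TBI+DEIX against TBI, with all 13 lower and without overlap, 5 called lower by limma and a median of -2.46. The part of the neutrophil and erythroid markers in the Mcl1 differences was not tested.

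Bcl2, which guards lymphocytes and early progenitors, was lower in both irradiated groups than in control. Bcl2 (ENSMUSG00000057329.7, chr1:106538178-106714274, minus strand) read 6.27, 6.16 and 7.74 FPKM in control, 5.08, 6.34 and 5.94 in DEIX, 4.40, 3.54 and 2.78 in TBI, and 4.56, 3.53 and 3.75 in TBI+DEIX. The TBI mean of 3.57 ± 0.808 FPKM was 46.8% below the control mean of 6.72 ± 0.881 (SD, n = 3), a log2 difference of -0.76 (SE 0.15, interval -1.09 to -0.44, limma adjusted p 0.0176). In TBI+DEIX it was 41.3% below control, a log2 difference of -0.64 (limma adjusted p 0.00871), and this call held in all 21 alternatives. No DEIX difference of Bcl2 passed the test: the log2 difference was 0.12 (interval -0.21 to 0.45) in irradiated mice and -0.19 (interval -0.51 to 0.14) in unirradiated mice. The call for TBI against control was lost in 7 alternatives. They are the TPM scale with the 3 neutrophil genes (limma adjusted p 0.139) or without them (0.0796), and leaving out control replicate 1, 2 or 3 or TBI replicate 2 or 3 (adjusted p from 0.0525 to 0.0884). Its size stayed between -0.91 and -0.64.

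Stem and progenitor markers were lower in the irradiated groups, as Bcl2 was, and B lineage markers were lower in DEIX as well. The 8 stem and progenitor markers summed to between 61.5 and 63.0 FPKM in control, 45.8 and 64.9 in DEIX, 30.2 and 31.6 in TBI, and 23.8 and 36.2 in TBI+DEIX. The B lineage sum read 38.8, 389 and 468 FPKM in TBI, 10.6, 247 and 112 in TBI+DEIX, and 92.3, 108 and 135 in DEIX. All 11 T and NK cell markers were lower for TBI against control (median -0.81, 10 without overlap, 3 called by limma) and for TBI+DEIX against control (median -0.75, 5 without overlap, 5 called). Of the 8 megakaryocyte and platelet markers, 5 were called lower for TBI and 6 for TBI+DEIX against control by limma. Of all genes, 38.2% were without overlap and 3.99% called for TBI against control, and 44.9% and 30% for TBI+DEIX against control. The T and NK cell count without overlap for TBI+DEIX lay near the share of all genes. The part of these marker lists in the Bcl2 differences was not tested. Likeness to Bcl2 was searched among the tested genes, leaving out the 10 members and genes with predicted or clone names. Among these, the nearest profile over the 12 libraries was that of Cd34, with a Pearson r of 0.935. Cd34 is a surface marker of progenitor and endothelial cells and one of those 8 markers.

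The starts of Mcl1 and Bcl2 are shown because these members moved in different groups of libraries. Each line gives the 250 bases before the RefSeq start on GRCm38.p6, 5′ to 3′ on the gene's strand, and capitals mark matches to the motifs searched on both strands: the GC box GGGCGG, the CRE core TGACGT and an NF-kB-like motif, GGG and CC with any 5 bases between.
Mcl1 (chr3:95658471-95658720, plus strand): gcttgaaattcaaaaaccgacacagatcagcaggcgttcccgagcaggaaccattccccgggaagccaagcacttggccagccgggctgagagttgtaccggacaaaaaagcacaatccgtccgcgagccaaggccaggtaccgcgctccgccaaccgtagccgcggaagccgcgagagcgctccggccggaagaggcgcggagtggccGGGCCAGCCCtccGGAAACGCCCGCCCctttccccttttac
Bcl2 (chr1:106714291-106714540, minus strand): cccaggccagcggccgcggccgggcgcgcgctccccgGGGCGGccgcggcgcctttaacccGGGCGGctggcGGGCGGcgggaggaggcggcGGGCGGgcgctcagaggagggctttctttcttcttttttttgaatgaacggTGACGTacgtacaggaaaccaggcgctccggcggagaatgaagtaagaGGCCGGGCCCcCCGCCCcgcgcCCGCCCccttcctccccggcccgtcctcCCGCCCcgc

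The Bcl2 window held 7 GC boxes, 1 TGACGT and 1 NF-kB-like motif, and its GC content was 74.8%. The Mcl1 window held 1 GC box and 2 NF-kB-like motifs, of which the one nearer the start overlaps the GC box, at a GC content of 64.4%. Of 32851 promoter windows of the same length, 32.7% held a GC box, 6.47% TGACGT and 45.8% an NF-kB-like motif, and the median GC content was 52.4%. TATAAA (12.4% of windows), CCAAT (33.8%) and the STAT-type TTC and GAA with any 3 bases between (7.02%) had no match in either window. A match is a description of these letters and not a bound site. Of the 10 members, 9 had an entry among the RefSeq promoters.

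Bcl2l1 encodes BCL-xL, the survival protein of maturing red cells and platelets, and its level did not follow the groups. Bcl2l1 (ENSMUSG00000007659.18, chr2:152780668-152831728, minus strand) read 21.7, 21.6 and 26.5 FPKM in control, 24.5, 28.3 and 20.7 in DEIX, 30.3, 15.6 and 18.1 in TBI, and 21.8, 25.6 and 25.0 in TBI+DEIX. The groups overlapped in every comparison, and TBI replicate 1 held both the highest Bcl2l1 and the highest erythroid marker sum, 9330 FPKM. Its log2 differences were -0.17 for TBI against control (interval -0.62 to 0.29), 0.22 for TBI+DEIX against TBI (-0.23 to 0.68) and 0.07 for DEIX against control (-0.39 to 0.52). The first turned to 0.02 without TBI replicate 2 and the last to -0.04 without DEIX replicate 2. The difference between TBI+DEIX and TBI was 0.49 without TBI replicate 1 and 0.04 without TBI replicate 2, and with array weights it was 0.54 and called (limma adjusted p 0.0194). The 13 erythroid markers summed to between 3780 and 5920 FPKM in control and to between 291 and 1880 in TBI+DEIX, while Bcl2l1 averaged 23.2 ± 2.80 FPKM in control and 24.1 ± 2.07 in TBI+DEIX (SD, n = 3).

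Bcl2a1b and Bcl2a1d are mouse copies of the A1 survival gene, whose product is short-lived and is found in granulocytes, macrophages and activated lymphocytes. Their coding sequences are nearly the same, so how the authors' counting shared reads among them, which is not given in the sources used here, can move both values. Over 519 coding bases of GENCODE vM21, Bcl2a1b and Bcl2a1d differ at 6 positions (98.8% identity), Bcl2a1a and Bcl2a1b at 11 (97.9%), and Bcl2a1a and Bcl2a1d at 7 (98.7%). Of all 100-base stretches of the transcript, 31.1% for Bcl2a1b and 54.7% for Bcl2a1d occur unchanged in another copy. Coding bases 1 to 60 are shown, 5′ to 3′, because they hold 6 of the 12 positions that are not the same in all 3 copies, in capitals.
Bcl2a1a: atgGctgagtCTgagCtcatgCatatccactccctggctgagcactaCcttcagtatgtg
Bcl2a1b: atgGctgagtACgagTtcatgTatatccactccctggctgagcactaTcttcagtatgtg
Bcl2a1d: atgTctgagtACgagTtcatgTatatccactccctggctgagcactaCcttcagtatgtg

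Bcl2a1b (ENSMUSG00000089929.1, chr9:89199209-89207827, plus strand) read 6.25, 6.12 and 5.63 FPKM in control, 2.69, 9.10 and 2.62 in DEIX, 3.50, 3.76 and 2.34 in TBI, and 3.72, 4.96 and 4.76 in TBI+DEIX. The control libraries lay close together and above all TBI and TBI+DEIX libraries, and DEIX replicate 2 was the highest of all. The mean was 46.7% lower in TBI than in control, a log2 difference of -0.75 (SE 0.32, limma adjusted p 0.249), which was not called. Fitted on these groups alone, the limma adjusted p was 0.0125, and without DEIX replicate 2 it was 0.0213. DEIX against control was -0.45 (limma adjusted p 0.431) with all libraries and -0.94 (limma adjusted p 0.0146) without DEIX replicate 2. With 1 library left out, this difference ran from -0.94 to -0.20. Of the 12 monocyte and macrophage markers, C1qa, C1qb and C1qc, complement genes of macrophages, were called lower by limma both for TBI against control and for DEIX against control, and Vcan was called higher in both; these were named after their values were seen. Over the 12 markers, 4 were higher and 8 lower for TBI against control (median -0.27, 5 without overlap), and 9 were higher and 3 lower for DEIX against control (median 0.37, 9 without overlap). Of all genes, 38.2% and 40.6% were without overlap in these comparisons, and the count for TBI lay near that share. C1qa averaged 38.2 FPKM in control, 11.5 with DEIX alone, 17.5 in TBI and 33.3 in TBI+DEIX. The summed markers were between 2030 and 2070 FPKM in control, 2190 and 2650 with DEIX alone, 1350 and 2160 in TBI, and 867 and 2790 in TBI+DEIX. The part of these markers in the Bcl2a1b differences was not tested.

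Bcl2a1d (ENSMUSG00000099974.1, chr9:88723285-88731914, minus strand) read 1.81, 1.63 and 1.93 FPKM in control, 0.987, 5.92 and 0.677 in DEIX, 1.11, 1.29 and 0.956 in TBI, and 0.464, 2.36 and 1.78 in TBI+DEIX. Control and TBI did not overlap, and DEIX replicate 2 again was the highest library. The log2 difference of -0.40 for TBI against control was not called by limma (adjusted p 0.695, and 0.0373 when fitted on these groups alone). The ratio of Bcl2a1b to Bcl2a1d was 3.38 ± 0.421 in control and 2.84 ± 0.352 in TBI (SD, n = 3), and 8.01 in TBI+DEIX replicate 1, where Bcl2a1d was lowest.

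Bak1 encodes the pore former BAK, and its level was higher in every library outside control. Bak1 (ENSMUSG00000057789.14, chr17:27019810-27029009, minus strand) read 34.0, 35.4 and 36.7 FPKM in control, 56.2, 38.5 and 42.4 in DEIX, 45.3, 41.4 and 44.8 in TBI, and 58.2, 47.8 and 54.3 in TBI+DEIX. Every TBI+DEIX library was above every TBI library, and every TBI library above every control library. In TBI+DEIX the mean of 53.4 ± 5.26 FPKM was 51% above the control mean of 35.4 ± 1.35 (SD, n = 3), a log2 difference of 0.58 (SE 0.13, interval 0.29 to 0.87, limma adjusted p 0.00783). This call was lost on the TPM scale (0.46, limma adjusted p 0.135) and on that scale without the 3 neutrophil genes (0.50, limma adjusted p 0.0668). For TBI against control the log2 difference was 0.30 (limma adjusted p 0.253), for TBI+DEIX against TBI 0.28 (0.203) and for DEIX against control 0.34 (0.135), none of them called. The first was called when fitted on these groups alone (limma adjusted p 0.041), and the last was 0.19 (limma adjusted p 0.399) without DEIX replicate 1. With array weights both were called, at 0.25 (limma adjusted p 0.0132) and 0.37 (0.00746). Beside Bak1, the B lineage sum was highest in the control libraries, and 6 of the 13 neutrophil markers were called higher by limma for TBI+DEIX against control. In that comparison, where 30% of all genes were called, all 13 erythroid markers were lower (median -2.14, 8 called by limma). There 6 of the 8 megakaryocyte and platelet markers were called lower. The part of these markers in the Bak1 differences was not tested. Bax, its partner, was outside the named list and was chosen here after its values were seen. Bax read 34.8 ± 3.46 FPKM in control, 34.0 ± 5.31 in DEIX, 36.5 ± 5.04 in TBI, and 35.6 ± 5.13 in TBI+DEIX (SD, n = 3), with log2 differences between -0.04 and 0.06 in the 4 comparisons.

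Among the BH3-only genes, Bmf was lower in both irradiated groups than in control, and Bcl2l11 and Bid showed no difference beyond their intervals. BMF is tethered to the cytoskeleton and is released on loss of attachment and other stress. Bmf (ENSMUSG00000040093.15, chr2:118528757-118549687, minus strand) read 7.19, 6.48 and 7.07 FPKM in control, 5.20, 9.87 and 6.13 in DEIX, 3.26, 4.35 and 4.10 in TBI, and 1.95, 4.07 and 4.39 in TBI+DEIX. In TBI+DEIX the mean of 3.47 ± 1.33 FPKM was 49.8% below the control mean of 6.91 ± 0.380 (SD, n = 3), a log2 difference of -0.87 (SE 0.24, interval -1.41 to -0.34, limma adjusted p 0.0203). The limma adjusted p rose to 0.0609, 0.0506 and 0.0604 when control replicate 1, 2 or 3 was left out. For TBI against control the groups did not overlap and the mean was 43.5% lower, a log2 difference of -0.70 that was not called (limma adjusted p 0.157). It was called when fitted on these groups alone (limma adjusted p 0.00605) and without TBI+DEIX replicate 1 (0.0294). DEIX alone differed from control by -0.01 (interval -0.55 to 0.52). Beside Bmf, the B lineage sum averaged 713 FPKM in control, 112 with DEIX alone, 298 in TBI and 123 in TBI+DEIX. The stem and progenitor sum averaged 62.3, 55.9, 30.9 and 28.4 FPKM in the same order of groups, and the sum of the 8 megakaryocyte and platelet markers 151, 94.1, 52.9 and 46.3. The part of these markers in the Bmf differences was not tested.

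Bcl2l11 encodes BIM, a strong activator of BAX and BAK that removes lymphocytes and granulocytes deprived of cytokines. Bcl2l11 (ENSMUSG00000027381.16, chr2:128126038-128162547, plus strand) read 11.2, 10.9 and 9.47 FPKM in control, 9.95, 10.9 and 11.2 in DEIX, 11.1, 10.3 and 10.3 in TBI, and 7.69, 12 and 10.5 in TBI+DEIX. Its log2 difference for TBI against control was 0.00, with a 95% interval of -0.30 to 0.31. The groups overlapped in all comparisons, and the lowest library was TBI+DEIX replicate 1. Bid, which caspase-8 cleaves to link death receptors to mitochondria, behaved likewise. Bid (ENSMUSG00000004446.12, chr6:120891930-120916853, minus strand) read 27.1, 27.5 and 28.1 FPKM in control, 27.2, 26.8 and 28.6 in DEIX, 31.1, 26.9 and 26.1 in TBI, and 21.1, 30.2 and 30.8 in TBI+DEIX. Its log2 difference for TBI against control was 0.02 (interval -0.27 to 0.31) and for TBI+DEIX against TBI -0.05 (-0.34 to 0.24). A change of up to those bounds in either direction remains within the intervals.

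Bik, a BH3-only protein of the endoplasmic reticulum, was under 1 FPKM in all 12 libraries and was not tested. Bik (ENSMUSG00000016758.4, chr15:83526862-83544634, plus strand) was between 0.283 and 0.345 FPKM in control, 0.128 and 0.239 in DEIX, 0.163 and 0.204 in TBI, and 0 and 0.281 in TBI+DEIX. Every control library was above every other library, at levels where a library's value rests on few reads. With no filter on low values, no comparison of Bik was called by limma, the lowest adjusted p being 0.0614 for TBI+DEIX against control.

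**Figure D3:**
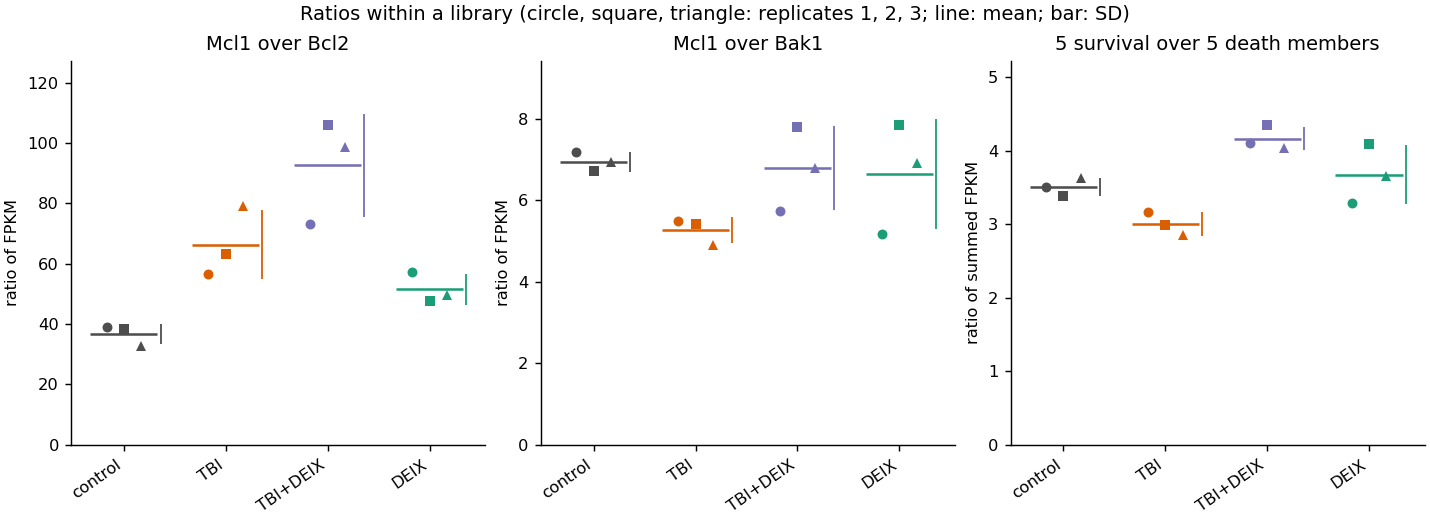
Ratios of FPKM within each library, by group: Mcl1 to Bcl2, Mcl1 to Bak1, and the summed survival genes to the summed death genes, as points with group means and 1 SD over 3 libraries. The Mcl1 to Bcl2 ratio is lowest in the 3 control libraries, between 32.9 and 39.0.

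Ratios within a library do not change with the scaling of the library, and FPKM is per length, so levels of different genes can be set side by side. In control the order was Mcl1 at 245 FPKM, Bak1 at 35.4, Bid at 27.6, Bcl2l1 at 23.2, Bcl2l11 at 10.5, Bmf at 6.91, Bcl2 at 6.72, Bcl2a1b at 6.0, Bcl2a1d at 1.79 and Bik at 0.306. The control libraries of Bmf overlapped with those of Bcl2, and those of Bcl2 with Bcl2a1b, while the other neighbours did not overlap. Bmf and Bcl2 stayed next to each other in TBI, at 3.90 and 3.57 FPKM, and in TBI+DEIX, at 3.47 and 3.95. The ratio of Mcl1 to Bcl2 was 39.0, 38.5 and 32.9 in control, 57.4, 47.8 and 49.5 in DEIX, 56.6, 63.4 and 79.0 in TBI, and 73.3, 106 and 98.6 in TBI+DEIX. All 9 libraries outside control were above the 3 control libraries. TBI and TBI+DEIX, and TBI and DEIX, overlapped in it. A ratio shows unequal change of its members and does not say which of them changed.

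The summed FPKM of the 5 survival genes over that of the 5 death genes was 3.51, 3.38 and 3.63 in control, 3.29, 4.09 and 3.65 in DEIX, 3.17, 2.99 and 2.85 in TBI, and 4.11, 4.35 and 4.04 in TBI+DEIX. The TBI libraries were below the control libraries and the TBI+DEIX libraries above them, while DEIX overlapped with control and TBI+DEIX. Mcl1 carries most of the survival sum. Bak1 was 43.8% of the death sum in control and 56.8% in TBI+DEIX, and Bmf was 8.56% of it in control and 4.54% in TBI. The ratio of Mcl1 to Bak1 was 6.95 ± 0.240 in control, 6.65 ± 1.36 in DEIX, 5.27 ± 0.317 in TBI, and 6.79 ± 1.03 in TBI+DEIX (SD, n = 3). These ratios were described and not tested, and messenger RNA levels do not give protein levels.

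The genes whose profiles were nearest to each member over the 12 libraries were found by Pearson correlation of log2(FPKM + 1). The search covered the tested genes other than the 10 members and genes with predicted or clone names. The points share depth and group, so the values are descriptions. After Cd34, Bcl2 was nearest to Cpq, Dhx34, Myct1 and Fcer2a (r from 0.910 to 0.918). Mcl1 was nearest to Nfatc1 (0.972), Dennd3, Sipa1l2, Krcc1 and Il10rb, a receptor chain for interleukin 10. Bak1 was nearest to Dpp9 (0.971), Stx18, Plscr1, Orm1 and Anxa7, and Bmf to Il10ra (0.962), Cyp4v3, Mink1, Ace and Sfxn3. Bcl2l1 had looser neighbours, Cmas (0.833), Gch1, Clk3, March2 and Tent5c. Bcl2a1b was nearest to its copy Bcl2a1a (0.866), with which it shares sequence, and Slc25a22, Apoe and Serpinb9 were also among its nearest genes. Bcl2a1d was nearest to Adgre4 (0.871), Treml4, Pltp, Dpm2 and Metrnl. With TBI+DEIX replicate 1 left out, r was 0.935 for Bcl2 with Cd34, 0.975 for Mcl1 with Nfatc1, 0.977 for Bak1 with Dpp9 and 0.944 for Bmf with Il10ra. Cpq (0.947) and Dhx34 (0.943) then lay nearer to Bcl2 than Cd34 did, and Sfxn3 (0.961) and Mink1 (0.948) nearer to Bmf than Il10ra did.

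**Figure D4:**
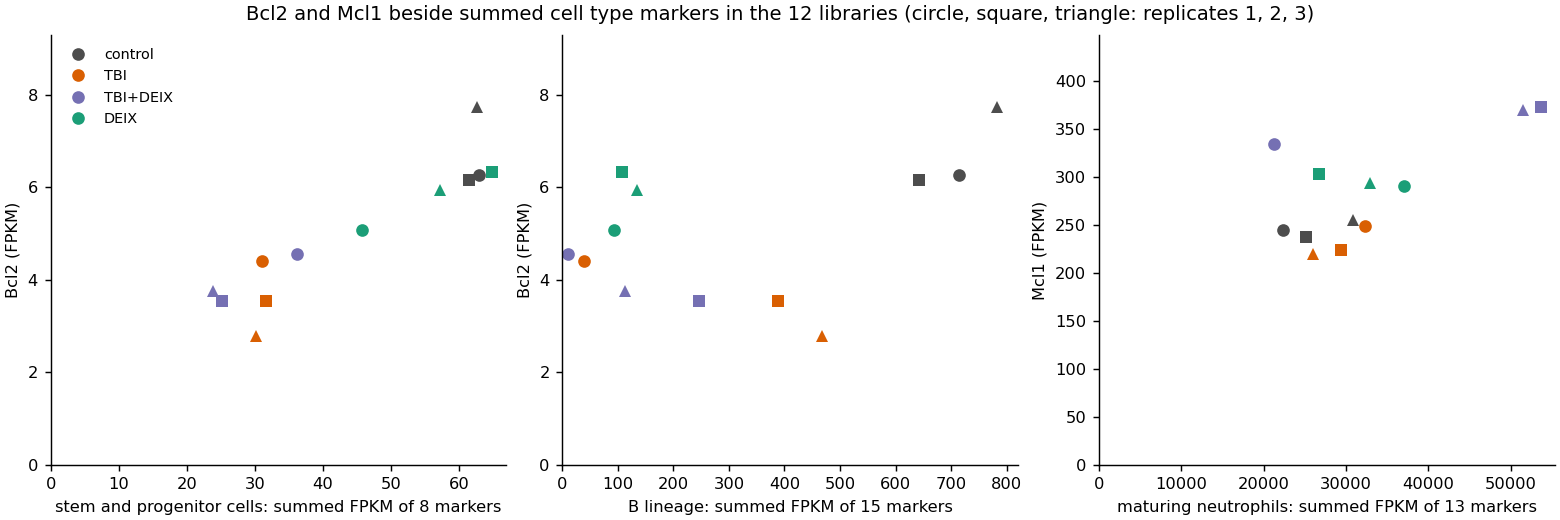
Members against the summed FPKM of marker lists in each of the 12 libraries, coloured by group, as a description with no fitted line. Bcl2 and the stem and progenitor sum are low in the 6 irradiated libraries, and TBI+DEIX replicate 1 has the lowest neutrophil sum.

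The other genes of the pathway were taken from fixed lists of 82 genes, of which 74 were tested. One gene was called for TBI against control (1.35%), 8 for TBI+DEIX against TBI (10.8%), 8 for DEIX against control (10.8%), 23 for TBI+DEIX against control (31.1%) and none in the interaction. These shares lie close to those of all genes tested, 3.99%, 8.1%, 7.24% and 30%. The calls were 0 higher and 1 lower, 6 and 2, 5 and 3, and 18 and 5 in the first 4 comparisons. The median log2 difference of the 74 genes was 0.08, 0.08, 0.09 and 0.14 in these 4 comparisons, beside 0.05, 0.00, 0.02 and 0.02 for all genes.

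Within the family, 16 other genes were listed and 11 tested. Of these, 2 were called for TBI+DEIX against control, where 30% of all genes were called, and none in the other comparisons. These 2 are named after their values were seen. Pmaip1, the p53 target that encodes NOXA, the BH3-only partner of MCL1, averaged 4.25 ± 0.0151 FPKM in control and 7.06 ± 2.08 in TBI+DEIX, a log2 rise of 0.59 (limma adjusted p 0.0199) that was 0.39 (0.0238) without TBI+DEIX replicate 1. Its call was lost on both TPM scales, in the fit of these groups alone and without control replicate 1, 2 or 3 (limma adjusted p 0.0543, 0.0615 and 0.0559). Bcl2l12, a family relative, fell by 0.55 on the log2 scale (limma adjusted p 0.00455), from 13.9 ± 2.24 to 9.17 ± 0.578 FPKM, and lost its call on the TPM scale alone (0.0504). Hrk and Bcl2a1c were listed at 0 in every library.

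**Figure D5:**
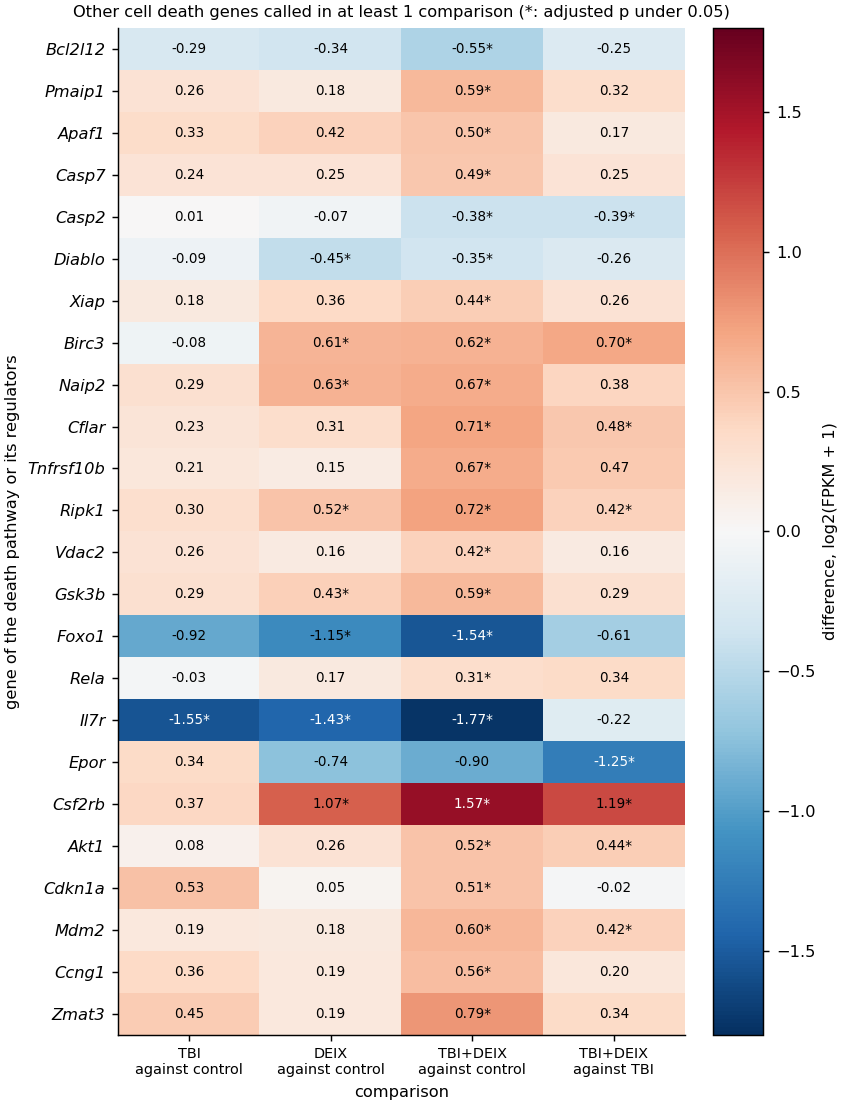
Log2 differences of the 24 listed pathway genes called in at least 1 comparison, with comparisons as columns and colour for direction and size; called values are marked. Birc3, Ripk1 and Csf2rb are called higher in each of the 3 comparisons that involve DEIX. Ripk1 and Csf2rb are also higher, without a call, for TBI against control.

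Among the inhibitors of apoptosis, all 7 were tested. Birc3, a ubiquitin ligase of the TNF receptor complex that favours survival, was at 27.3 ± 1.4 FPKM in control, 42.2 ± 3.28 in DEIX, 25.9 ± 3.68 in TBI, and 42.5 ± 3.59 in TBI+DEIX (SD, n = 3). The log2 rise was 0.70 for TBI+DEIX against TBI (limma adjusted p 0.0151), 0.61 for DEIX against control (0.0135) and 0.62 for TBI+DEIX against control (0.00282). Every library with DEIX was above every library without it. Naip2, which also senses bacterial proteins, rose by 0.63 for DEIX against control (limma adjusted p 0.0228) and by 0.67 for TBI+DEIX against control (0.00459). Diablo, which releases caspases from these inhibitors, averaged 27.2 ± 0.753 FPKM in control, 19.6 ± 0.529 in DEIX and 21.2 ± 0.548 in TBI+DEIX (SD, n = 3). It fell by 0.45 for DEIX against control (limma adjusted p 0.0184) and by 0.35 for TBI+DEIX against control (0.016), and the second call was lost without control replicate 2 or 3 (0.0546 and 0.0547) and on both TPM scales (0.128 and 0.0776).

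Of the death receptor genes, Ripk1, the kinase that turns TNF signals to survival or death, rose in the 3 comparisons with DEIX. Its mean was 18.5 ± 0.947 FPKM in control, 27.1 ± 2.76 in DEIX, 22.9 ± 1.62 in TBI, and 31.0 ± 1.93 in TBI+DEIX (SD, n = 3). The log2 differences were 0.42 (TBI+DEIX against TBI, limma adjusted p 0.0322), 0.52 (DEIX against control, 0.0135) and 0.72 (TBI+DEIX against control, 0.00061). For TBI against control, without DEIX, it was also higher, by 0.30, and not called (limma adjusted p 0.139). The libraries did not overlap there, as for 38.2% of all genes. Cflar, which encodes the caspase-8 inhibitor FLIP, rose by 0.48 for TBI+DEIX against TBI (limma adjusted p 0.0327) and by 0.71 for TBI+DEIX against control (0.00133).

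Upstream of the family, Csf2rb, the shared receptor chain for GM-CSF, interleukin 3 and interleukin 5, rose in the 3 comparisons with DEIX. Its mean was 64.8 ± 5.27 FPKM for control, 86.2 ± 24.3 for TBI and 196 ± 38.8 for TBI+DEIX, with 139 ± 31.4 for DEIX (SD, n = 3). The log2 rise was 1.19 for TBI+DEIX against TBI (limma adjusted p 0.0177), 1.07 for DEIX against control (0.019) and 1.57 for TBI+DEIX against control (0.000637). For TBI against control it was 0.37 and not called (limma adjusted p 0.401). Il7r, the interleukin 7 receptor of lymphoid precursors, averaged 18.1 ± 2.92 FPKM in control, 6.24 ± 1.91 in DEIX, 6.31 ± 3.75 in TBI, and 4.68 ± 1.41 in TBI+DEIX (SD, n = 3), and every library outside control was below the control libraries. It was the only listed gene called for TBI against control, falling by 1.55 on the log2 scale (limma adjusted p 0.0492), and it fell by 1.43 for DEIX against control (0.0496) and by 1.77 for TBI+DEIX against control (0.00652). The call for TBI held in 6 of 21 alternatives and was lost without control replicate 1, 2 or 3 (limma adjusted p 0.166, 0.151 and 0.129) or TBI replicate 1 or 2 (0.079 and 0.0724), and without TBI replicate 1 the log2 difference was -1.02. That for DEIX held in 8 and was lost without control replicate 1, 2 or 3 (0.144, 0.142 and 0.117) or DEIX replicate 1 or 3 (0.184 and 0.134), while that for TBI+DEIX held in all 21. The B lineage sum was lower in the same 3 groups, and its part in the Il7r differences was not tested. The neutrophil markers were higher in the comparisons that called Csf2rb, Birc3, Ripk1 and Naip2, as given beside Mcl1, and their part in those rises was not tested. Akt1, a kinase of survival signals, rose by 0.44 for TBI+DEIX against TBI (limma adjusted p 0.0376), which held in 7 of 21, and by 0.52 for TBI+DEIX against control (0.0061). Gsk3b, a kinase that marks MCL1 for breakdown, rose by 0.43 for DEIX against control (limma adjusted p 0.0409), which held in 10 of 21, and by 0.59 for TBI+DEIX against control (0.00299). For TBI against control Gsk3b was 0.29 higher and not called (limma adjusted p 0.182).

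The other genes called lower were Foxo1, Casp2 and Epor, named after their values were seen. Foxo1, a transcription factor that drives Bcl2l11 and lymphoid genes, averaged 8.29 ± 0.747 FPKM in control, 3.20 ± 0.524 in DEIX, 4.28 ± 2.25 in TBI, and 2.27 ± 0.878 in TBI+DEIX (SD, n = 3). It fell by 1.54 for TBI+DEIX against control (limma adjusted p 0.00412) and by 1.15 for DEIX against control (0.0476), and the second call was lost when any control or DEIX library was left out (0.0684 to 0.168) and on the TPM scale (0.0542), and it held in 8 of 20 alternatives, with a pseudocount of 0.1 (0.0694) and no filter (0.0808) among the losses. The B lineage sum was lower in the same groups, and its part in the Foxo1 differences was not tested. Casp2, an initiator caspase, fell by 0.39 for TBI+DEIX against TBI (limma adjusted p 0.0414) and by 0.38 for TBI+DEIX against control (0.0168). Epor, the erythropoietin receptor and one of the erythroid markers, averaged 22.3 ± 6.06 FPKM in TBI and 8.90 ± 3.04 in TBI+DEIX (SD, n = 3), a log2 difference of -1.25 (limma adjusted p 0.0417). The calls of Casp2 and Epor for TBI+DEIX against TBI were lost when any TBI or control library, TBI+DEIX replicate 3 or DEIX replicate 3 was left out (limma adjusted p from 0.0529 to 0.182), in the fit of these groups alone (0.144 and 0.177) and on the TPM scale (0.0736 and 0.163). The Casp2 call against control was lost without control replicate 1 or 2 (0.0686 and 0.0513), in the fit of these groups alone (0.0754) and on the TPM scale (0.0812).

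Of the 14 p53 targets outside the family, 13 were tested, and 5 were called higher and none lower for TBI+DEIX against control, a comparison in which 30% of all genes were called and 16.9% were called higher. Of the 13, Tnfrsf10b, Zmat3 and Phlda3 were under 1 FPKM in every control library and passed the filter only through other groups, so the counts of this list against control are partly set by the filter and are no measure of the list. Mdm2, the ligase that limits p53, was at 28.3 ± 0.238 FPKM in control, 32.2 ± 2.10 in DEIX, 32.4 ± 1.65 in TBI, and 43.5 ± 0.411 in TBI+DEIX (SD, n = 3). It rose by 0.42 for TBI+DEIX against TBI (limma adjusted p 0.0196) and by 0.60 for TBI+DEIX against control (0.000512). Zmat3, a p53-induced RNA binding protein, averaged 0.703 ± 0.105 FPKM in control and 1.95 ± 0.198 in TBI+DEIX, a log2 rise of 0.79 (limma adjusted p 0.00144) that the pseudocount of 1 holds down at this level and that was 1.35 with a pseudocount of 0.1. With no filter on low values it was 0.79 as well (limma adjusted p 0.00144). For TBI against control no gene of this list was called by limma, with 5 higher and 1 lower at an unadjusted p under 0.05. Of its 13 tested genes 10 were higher, with a median log2 difference of 0.21 beside 0.05 for all genes. The libraries did not overlap for 8 of those and for 2 lower ones, Rrm2b and Fas, where 38.2% of all genes did not overlap. The smallest p there was that of Cdkn1a, which encodes the cell cycle inhibitor p21, at 7.25, 7.85 and 9.38 FPKM in control and 11.1, 12.3 and 13.2 in TBI (log2 difference 0.53, limma adjusted p 0.0685). The pathway calls named above for TBI+DEIX against TBI (Birc3, Csf2rb, Mdm2, Ripk1, Cflar and Akt1) were lost in the fit of these groups alone (limma adjusted p from 0.144 to 0.186). They were also lost without TBI replicate 3 (0.08 to 0.152) or TBI+DEIX replicate 3 (0.0563 to 0.107) and on the TPM scale (0.0575 to 0.502), and Mdm2, Ripk1, Cflar and Akt1 without TBI replicate 2 (0.0555 to 0.0983). Those named for DEIX against control (Birc3, Ripk1, Diablo, Csf2rb, Naip2 and Gsk3b) were lost without control replicate 2 (limma adjusted p from 0.0649 to 0.147), control replicate 3 (0.0522 to 0.149) or DEIX replicate 1 (0.0506 to 0.107), and on the TPM scale (0.0785 to 0.571). All of these but Birc3 were lost without DEIX replicate 3 (0.0598 to 0.154), and all but Birc3 and Ripk1 without control replicate 1 (0.0534 to 0.0652). For TBI+DEIX against control, the calls of Birc3, Cflar, Mdm2, Naip2, Gsk3b and Akt1 were lost on the TPM scale (limma adjusted p from 0.0547 to 0.233), and those of Ripk1, Csf2rb, Il7r and Zmat3 were not. The directions of the genes named in these calls stayed the same in every alternative that gave a value.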

How the data were processed

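The deposited table holds FPKM per gene and library, computed by the authors. The submitters' processing notes name STAR 2.6, Cufflinks 2.2.1 and build mm10 without saying which step each served. Strand handling of the counting is not given in the sources used here. All 21853 gene identifiers matched GENCODE vM21 (GRCm38), which gave symbols and coordinates. Promoters are from RefSeq on GRCm38.p6.

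Values were tested as log2(FPKM + 1), which understates changes of low genes, for the 10994 genes that reached an FPKM of 1 in 3 or more of 12 libraries. limma 3.58.1 in R 4.3.3 (lmFit, eBayes with trend) fitted 4 group means with 8 residual degrees of freedom, Benjamini-Hochberg over all genes, called at 0.05. The 5 contrasts are those in the text, and 21 alternatives were tried. The scripts were tested on simulated data. The members and gene lists were chosen with earlier results of these data known. Nearest genes were sought without the members and without genes with predicted or clone names. Named were all members, from the pathway lists at most the 6 called genes with the smallest adjusted p per comparison, and the 5 genes nearest to each survival or called member. Bax, Pmaip1, Bcl2l12, Foxo1, Casp2, Epor, Cdkn1a, Tnfrsf10b, Phlda3, Rrm2b, Fas, C1qa, C1qb, C1qc and Vcan were named outside this rule, after their values were seen, as were further comparisons of genes it names. One gene that this rule names is not reported here. Array weights used the gene-by-gene method. The depth sets no interval here, since FPKM holds no counts.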

Additional observations from a re-analysis of the deposited data

How the results depend on the processing

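In all 21 alternatives the log2 values of Mcl1, Bak1, Bcl2 and Bmf kept their sign wherever they were called. Genes called for TBI against control numbered 675 with no filter, 134 at a mean FPKM of at least 5, 253 on the TPM scale, 4218 with array weights and 1417 with only the compared groups, and 153 to 1337 with 1 library left out. For TBI+DEIX against TBI they numbered 157 on the TPM scale, 492 on that scale without the 3 neutrophil genes, 4488 with array weights, 474 with the replicate block, 0 with only the compared groups, and 5 to 2836 with 1 library left out. For DEIX against control the counts were 282 (TPM), 419 (TPM without the 3 genes), 4508 (array weights) and 2057 (compared groups), and 146 to 2394; for TBI+DEIX against control 1785 (TPM), 6187 (array weights) and 2181 (compared groups), and 2004 to 4232; for the interaction 11 (pseudocount 0.1), 37 (no filter), 7 (mean FPKM of at least 5), 38 (quantile normalization) and 532 (array weights), and 4 to 331. The array weights ran from 0.0709 for TBI+DEIX replicate 1 to 11 for control replicate 2. The share of calls that were higher went from 22.3% in FPKM to 9.49% in TPM for TBI against control, from 57.9% to 34.4%, from 62.4% to 19.1% and from 56.2% to 30.6% in the other comparisons.

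Members called for TBI against control were 0 on either TPM scale, 5 with array weights and 5 with only the compared groups, and 0 to 2 with 1 library left out. For TBI+DEIX against TBI they were 0 (TPM), 2 (array weights) and 0 (compared groups), and 0 to 1. For DEIX against control they were 3 with array weights and 0 to 1 with 1 library left out, for TBI+DEIX against control 2 on the TPM scale, and for the interaction 1 with array weights.

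Values near 0 changed sign under some settings, none of them called in the alternative or in the report. For TBI against control, Bcl2l11 was -0.01 with quantile normalization and -0.06 with array weights, and Bid -0.05 and -0.02; leaving out 1 library gave -0.44 to 0.02 for Bcl2l1, -0.06 to 0.05 for Bcl2l11 and -0.05 to 0.07 for Bid. For TBI+DEIX against TBI, array weights gave 0.11 for Bcl2l11 and 0.14 for Bid, and leaving out 1 library gave -0.01 to 0.25 for Bcl2, -0.07 to 0.53 for Bcl2a1d, -0.21 to 0.08 for Bcl2l11, -0.14 to 0.12 for Bid and -0.34 to 0.10 for Bmf. For DEIX against control, the TPM scale gave -0.08 for Bcl2l1, -0.12 for Bcl2a1d and -0.13 for Bcl2l11, that scale without the 3 genes -0.06 for Bcl2a1d and -0.02 for Bcl2l11, pseudocount 0.1 -0.13 for Bcl2a1d, quantile normalization 0.05 for Bmf, and array weights -0.21 for Bcl2a1d, -0.02 for Bcl2l11 and 0.01 for Bid; leaving out 1 library gave -0.04 to 0.18 for Bcl2l1, -0.61 to 0.41 for Bcl2a1d, -0.05 to 0.06 for Bcl2l11, -0.03 to 0.02 for Bid and -0.25 to 0.16 for Bmf. Between TBI+DEIX and control, Bcl2l1 was -0.07 (TPM), -0.03 (TPM without the 3 genes) and -0.05 (quantile normalization), Bcl2a1d 0.10 with quantile normalization, and array weights gave 0.19 for Bcl2a1d, 0.05 for Bcl2l11 and 0.13 for Bid; leaving out 1 library gave -0.47 to 0.13 for Bcl2a1d, -0.20 to 0.09 for Bcl2l11 and -0.12 to 0.14 for Bid. The cause was not tested.

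Replicate numbers are shared by the groups, but same-numbered libraries correlated in their deviations between -0.45 and 0.24, so the numbers did not pair them. With the replicate block the counts of genes called were 378, 474, 640, 3000 and 20, against 439, 891, 796, 3299 and 22, no member gained or lost a call, and the named pathway calls of Akt1, Ripk1, Casp2 and Epor for TBI+DEIX against TBI (limma adjusted p 0.0653, 0.0528, 0.0693 and 0.0619) and of Gsk3b for DEIX against control (0.0518) were lost. Depth is unknown, so the counting error of values under 1 FPKM, as for Bik, was not estimated.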
